A study of Mus musculus with 2 samples.

Results

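The SoxC (*Sox4*, *Sox11*, *Sox12*), SoxD (*Sox5*, *Sox6*, *Sox13*) and SoxE (*Sox8*, *Sox9*, *Sox10*) genes were examined in RNA-seq of E14 embryonic stem (ES) cells and of mouse E10.5 forebrain, with 1 sample of each and no replicates. The genes were selected by symbol, and all 9 are among the 29311 genes listed in the tables of both samples. The ES cells were wild-type cells of the E14 line, grown without feeders in serum and LIF. The forebrain cells were wild type, from B6CBAF1/J embryos, so that cell type and strain cannot be told apart. Values are given as RPKM (reads per kb of exon, scaled per sample) as deposited by the authors. All differences are between these 2 libraries and have no replicate check. In a tissue sample, fewer cells of a type and less RNA per cell cannot be told apart.

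Sox proteins are transcription factors that bind and bend DNA through an HMG box, and they are sorted into groups by its sequence. SoxC proteins carry a C-terminal activation domain and are known for driving neuronal and mesenchymal differentiation. SoxD proteins lack an activation domain and pair through a coiled coil, and they often bind near SoxE proteins. SoxE proteins are known for their roles in cartilage, neural crest, glia and neural stem cells.

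The HMG box is the part in which the 9 members are most alike, and therefore the part in which a read could be assigned to the wrong gene. The 216 bases of coding sequence that were most alike between members were compared without gaps in the protein-coding transcripts of the NCBIM37 annotation. The first 90 bases are shown 5′ to 3′ from the longest coding sequence of each gene, with the bases that all 9 share in capitals.
Sox4: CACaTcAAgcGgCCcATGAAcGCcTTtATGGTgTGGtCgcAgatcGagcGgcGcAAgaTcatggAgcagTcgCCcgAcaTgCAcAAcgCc
Sox11: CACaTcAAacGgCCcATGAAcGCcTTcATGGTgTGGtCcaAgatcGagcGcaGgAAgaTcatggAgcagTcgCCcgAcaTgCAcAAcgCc
Sox12: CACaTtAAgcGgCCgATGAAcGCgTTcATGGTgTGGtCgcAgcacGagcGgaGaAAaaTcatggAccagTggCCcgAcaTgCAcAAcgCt
Sox5: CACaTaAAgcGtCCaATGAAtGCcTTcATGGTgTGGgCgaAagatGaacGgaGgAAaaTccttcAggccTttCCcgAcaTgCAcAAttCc
Sox6: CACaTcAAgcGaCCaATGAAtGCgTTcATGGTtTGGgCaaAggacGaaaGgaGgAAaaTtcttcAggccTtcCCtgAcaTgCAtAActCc
Sox13: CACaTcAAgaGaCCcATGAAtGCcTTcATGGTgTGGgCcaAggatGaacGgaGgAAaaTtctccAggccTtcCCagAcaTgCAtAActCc
Sox8: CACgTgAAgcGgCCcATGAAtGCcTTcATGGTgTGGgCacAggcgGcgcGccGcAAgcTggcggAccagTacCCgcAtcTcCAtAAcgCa
Sox9: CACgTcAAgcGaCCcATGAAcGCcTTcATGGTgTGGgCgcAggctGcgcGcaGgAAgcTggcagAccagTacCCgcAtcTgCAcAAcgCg
Sox10: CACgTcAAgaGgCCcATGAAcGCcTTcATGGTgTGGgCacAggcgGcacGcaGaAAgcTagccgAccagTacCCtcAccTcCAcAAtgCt

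In the 90 bases shown, 45 were the same in all 9 genes, and in the 216 bases 87 were. Between members of one group the identity was 82.9 to 90.7%, compared with 53.7 to 75.5% between members of different groups. *Sox4* and *Sox11* were the most alike and shared a run of 48 bases without a difference, the longest of any pair. Little of the exonic sequence repeats elsewhere. Of all stretches of 32 bases in the exons, 97.55 to 100% per gene occur once in the genome (NCBIM37, both strands), with *Sox9* lowest and *Sox6* highest. How the authors treated reads that fit several places is not given in the sources used here.

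Depth was read from the low values, of which 62.2% in ES cells and 64.4% in forebrain lay within 0.05 reads of a whole multiple of the contribution of 1 read (10% by chance). The remaining low values did not, so small numbers of reads are rounded estimates. Summed over all genes, 42784371 reads were inferred for ES cells and 59791851 for forebrain, 1.4 times as many. The values of the 9 genes rest on 1548 of these reads in ES cells, and on 32456 in forebrain. Intervals below are exact Poisson 95% intervals for a level, and exact binomial (Clopper-Pearson) 95% intervals for a ratio. They cover the counting of reads only.

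All 9 genes had a higher RPKM in forebrain than in ES cells, as had 50.6% of all listed genes. On log2(RPKM + 1), 7 of the 9 genes were at least 2-fold higher in forebrain, compared with 25.8% of all listed genes and 27.9% of the protein-coding ones. In ES cells 0 were at least 2-fold higher, compared with 23.3% of all listed and 18.9% of protein-coding genes. At least 4-fold higher in forebrain were 7 genes, compared with 14.4% and 15.6%, respectively. The median log2 ratio of the 9 genes was 4.31, with a range from 0.69 (*Sox13*) to 7.95 (*Sox9*), while that of all listed genes was 0.013. In ES cells 4 members lay above the median of all listed genes (RPKM 48.9), and in forebrain 8 members lay above it (62.4). This scale understates the difference of genes with low values.

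**Figure D1:**
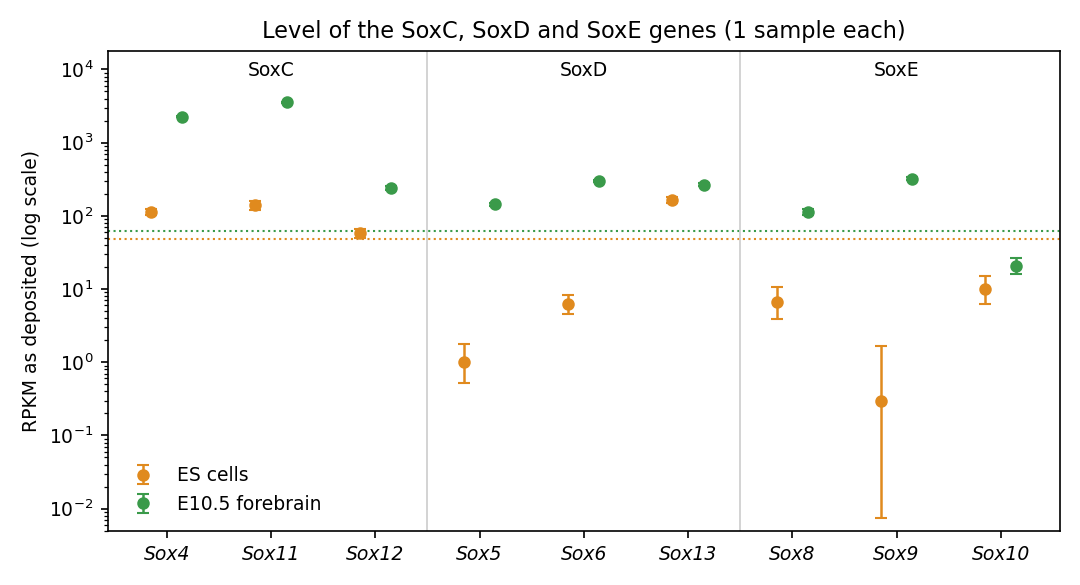
RPKM as deposited (log scale) of each gene in ES cells (orange) and forebrain (green), 1 sample each, with exact Poisson 95% intervals for the counting of reads and the median of all listed genes as dotted lines. *Sox13* was the highest member in ES cells (164.08), and *Sox11* (3542.06) and *Sox4* (2263.3) were the highest in forebrain.

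**Figure D2:**
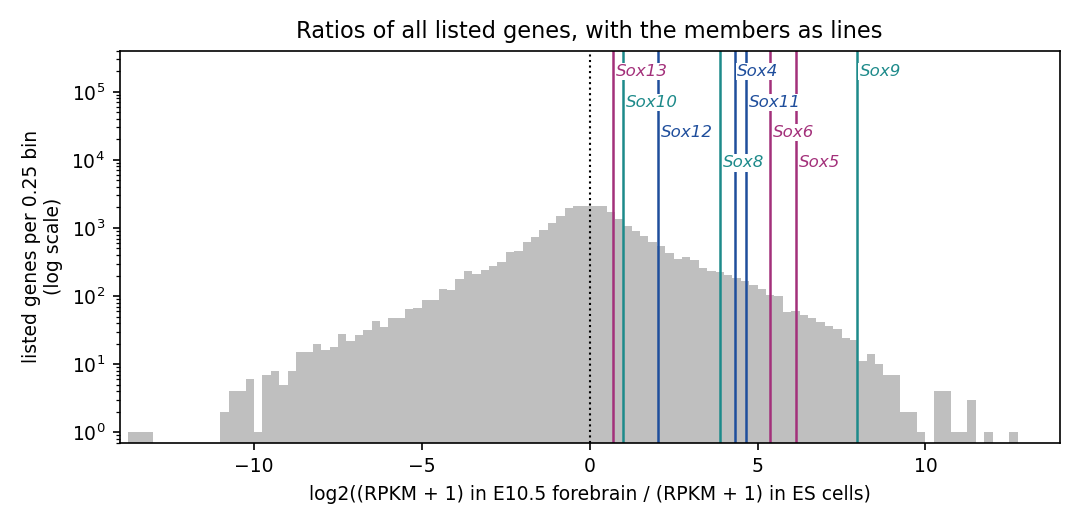
Histogram of the log2 ratio of forebrain over ES cells for the 29311 listed genes (counts on a log scale, 0.25 per bin), with the 9 genes as coloured lines (blue, SoxC, purple, SoxD, teal, SoxE) and the median of all genes (0.013) dotted. All 9 lines lie above the median, from 0.69 for *Sox13* to 7.95 for *Sox9*.

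The labels were checked against markers. For comparison, 25.8% of all listed genes were at least 2-fold higher in forebrain and 23.3% in ES cells. All 9 pluripotency markers were at least 2-fold higher in ES cells, among them *Tdgf1* (6431.61 and 4.72) and *Fgf4* (1476.32 and 1.89), and *Sox2* had the smallest difference. Of 9 markers of forebrain neuroepithelium, 8 were at least 2-fold higher in forebrain, and *Lhx2* and *Nkx2-1*, listed at 0 in ES cells, had 876.64 and 85.03 there. The remaining one, *Vim*, had 15776.5 and 24191.3. Markers of other cell types were also present in the forebrain sample. All 7 mesenchyme markers were at least 2-fold higher there and ranged from 399.55 (*Prrx1*) to 10812 (*Col3a1*), compared with 2.35 to 18.35 in ES cells, and summed to 19813 compared with 65.4. None of them was at 0. *Sox4*, *Sox11*, *Sox5*, *Sox6*, *Sox9* and cartilage collagens are known to be expressed in head mesenchyme as well, and the part of mesenchyme in their values was not tested.

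All 6 erythroid markers were at least 2-fold higher in forebrain, with a range from 138 to 367633 there and from 6.51 to 167 in ES cells. Of 5 endothelial markers, 4 were at least 2-fold higher in forebrain, and the 5 ranged from 308 to 601 there. Of 5 surface ectoderm markers, *Krt18*, *Krt5* and *Trp63* were at least 2-fold higher in forebrain (5.47 to 190.07), *Epcam* was higher in ES cells (1685.28 compared with 205.98), and *Krt8* lay between. Markers of extraembryonic endoderm were low in ES cells, from 0.59 to 3.12. In forebrain 4 of 5 were at least 2-fold higher, up to 41.29 for *Sox17*. Among these 4, *Sox17* and *Sox7* are also SoxF genes, which act in endothelium, and the others reached at most 5.9. Which cells gave these values was not tested. The share of each cell type in the values of the 9 genes was not tested.

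The highest levels in forebrain were those of the SoxC genes *Sox11* and *Sox4*. *Sox11* (chromosome 12, 28025562 to 28027574, NCBIM37, minus strand, 1 exon) is known to switch on neuronal genes in newborn neurons. Its RPKM was 139.19 in ES cells (122 to 159, 230 reads) and 3542.06 in forebrain (3468 to 3617, 8706 reads). The difference was 25.4-fold (22.3 to 29.1), and *Sox11* stood at rank 922 of the listed genes in forebrain (percentile 96.9) compared with rank 11248 in ES cells. The annotated transcript has 2013 bases with 524 bases after the coding part, and reads outside it do not count toward the value.

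*Sox4* (chromosome 13, 29040788 to 29045582, minus strand, 1 exon) acts largely alongside *Sox11*. Its RPKM was 112.79 in ES cells (103 to 124, 443 reads) and 2263.3 in forebrain (2225 to 2302, 13251 reads), a 20.1-fold difference (18.3 to 22.1). *Sox4* is listed under a further identifier for a coding stretch of 405 bases inside this exon, which gave 150.72 and 3068.05. Both entries thus placed *Sox4* far higher in forebrain, and since they share reads they are not independent.

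The value of *Sox4* may hold reads of both strands. The lincRNA *Gm17419* lies on the opposite strand, and 2616 of its 2649 exonic bases fall inside the exon of *Sox4*, which is 54.6% of that exon. *Gm17419* had an RPKM of 105.54 in ES cells and 2206.5 in forebrain, close to *Sox4* in each sample. The libraries are strand-specific, but whether the counting used the strand is not given in the sources used here. After these values were seen, 6 such pairs were found, *Sox4* with *Gm17419* among them, in which a listed gene of one exonic block with an RPKM of at least 100 in forebrain covers at least 90% of a gene on the other strand. The covered gene had 0.748 to 2.7 times the RPKM of the other in forebrain. So few pairs, with the pair that prompted the search among them, cannot decide whether the strand was used. Since the sources do not give this, reads of *Sox4* and *Gm17419* cannot be told apart here.

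*Sox12* (chromosome 2, 152219347 to 152223782, minus strand) is a weaker activator expressed with the other SoxC genes. Its RPKM was 57.94 in ES cells (50.2 to 66.6, 198 reads) and 242.27 in forebrain (229 to 256, 1234 reads), a 4.18-fold difference (3.60 to 4.88). The summed level of the 3 SoxC genes was 309.92 in ES cells, compared with 6047.63 in forebrain, a ratio of 19.5. Without *Sox11* the ratio was 14.7. SoxC genes held 62.2% of the summed RPKM of the 9 genes in ES cells and 83.9% in forebrain.

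The SoxD genes differed among themselves, with log2 ratios from 0.69 to 6.16. *Sox5* and *Sox6* support *Sox9* in cartilage and act later on the timing of neuron and oligodendrocyte production, while *Sox13* is known from lymphocytes and arterial walls as well as from the nervous system. *Sox5* (chromosome 6, 143776945 to 144730497, minus strand, 25 exonic blocks) had an RPKM of 1.02 in ES cells (0.53 to 1.78, 12 reads) and of 143.24 in forebrain (138 to 149, 2514 reads). The ratio was 140 (80.3 to 272). *Sox6* (chromosome 7, 122614858 to 123182258, minus strand, 21 exonic blocks) had 6.21 in ES cells (4.53 to 8.30, 45 reads) and 299.15 in forebrain (289 to 310, 3233 reads), a 48.2-fold difference (35.9 to 66.2). Both were thus low in ES cells, at percentiles 15.9 and 29.6 of the listed genes, and near percentiles 59.3 and 69.7 in forebrain.

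*Sox13* (chromosome 1, 135278880 to 135320954, minus strand) did not share this pattern. Its RPKM was 164.08 in ES cells (151 to 178, 580 reads) and 265.84 in forebrain (252 to 280, 1400 reads), a 1.62-fold difference (1.47 to 1.79). It was the highest of the 9 genes in ES cells, and its interval overlapped that of *Sox11* there. *Sox13* held nearly all of the summed SoxD level in ES cells, which was 171.31, compared with 708.23 in forebrain (ratio 4.13). Its ratio was below 2 under each scaling, with a log2 ratio of 0.34 to 0.96. When *Sox6* was left out, the ratio of the summed SoxD level was 2.48.

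The SoxE genes were all low in ES cells, with a summed RPKM of 16.86 from 40 reads. *Sox9* (chromosome 11, 112643538 to 112649074, plus strand), required for cartilage and for the onset of gliogenesis and neural stem cells, was listed at 0.3 in ES cells. This value is 1 read (interval 0.0075 to 1.65), below the 3 reads that a count of 0 allows. In forebrain its RPKM was 321.3 (306 to 337, 1622 reads). It was the third highest of the 9 genes there. The ratio was 1071, with a counting interval of 195 to 43004.

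*Sox8* (chromosome 17, 25702837 to 25707631, minus strand) overlaps in function with the other SoxE genes. Its RPKM was 6.66 in ES cells (3.88 to 10.7, 17 reads) and 112.17 in forebrain (102 to 123, 427 reads), a 16.8-fold difference (10.4 to 29.2). *Sox10* (chromosome 15, 78985343 to 78994920, minus strand) marks migrating neural crest, Schwann cells and oligodendrocytes. It had 9.9 in ES cells (6.20 to 14.99, 22 reads) and 20.68 in forebrain (16.2 to 26.4, 69 reads), the lowest value of the 9 genes there. The ratio was 2.09 (1.29 to 3.57), and on log2(RPKM + 1) it was 0.99, just under the 2-fold limit. *Sox10* passed this limit with a pseudocount of 0.1, with scaling by the sum of RPKM and with scaling by the inferred reads. The ratio of the summed SoxE level was 26.9, and 8.02 without *Sox9*.

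**Figure D3:**
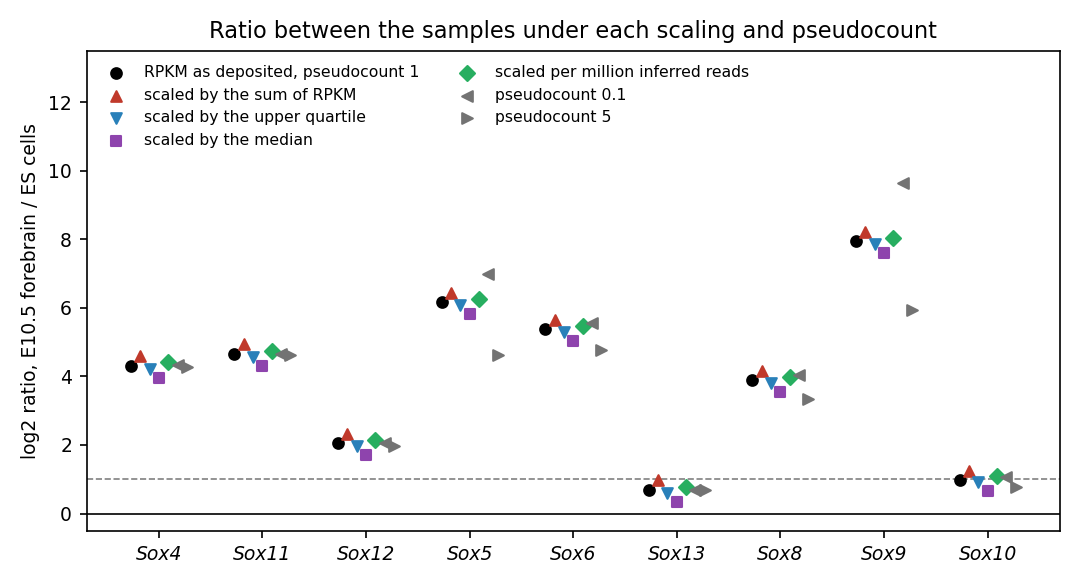
Log2 ratio of forebrain over ES cells for each gene, with RPKM as deposited (black) and under each alternative scaling (coloured) or pseudocount (grey), with 2-fold as the dashed line. All values lie above 0, *Sox13* stays below 1 throughout, and *Sox9* spans the widest range, from 5.94 to 9.65.

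The order of the 9 genes differed between the samples. In ES cells *Sox13* was followed by *Sox11*, *Sox4*, *Sox12*, *Sox10*, *Sox8*, *Sox6*, *Sox5* and *Sox9*. Neighbours in this order had overlapping intervals except *Sox4* and *Sox12*, *Sox12* and *Sox10*, and *Sox6* and *Sox5*. In forebrain *Sox11* was followed by *Sox4*, *Sox9*, *Sox6*, *Sox13*, *Sox12*, *Sox5*, *Sox8* and *Sox10*. Here only the neighbours *Sox9* and *Sox6*, and *Sox13* and *Sox12*, had overlapping intervals. These intervals do not cover the choice of exonic length. For example, all annotated exons of *Sox5* hold 14376 bases, compared with 7243 in the transcript with its longest coding sequence. The effect of this on the order was not tested. *Sox9* thus moved from place 9 to place 3, and *Sox10* from place 5 to place 9. Recomputed as a conventional RPKM from the inferred reads, *Sox11* had 2.67 in ES cells, compared with 72.3 in forebrain. On the same scale *Sox4* had 2.16 and 46.2, and *Sox10* had 0.19 and 0.425.

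The promoters of the members differed in their content of CpG dinucleotides. RefSeq promoters (GRCm38.p6, 250 bases before to 50 bases after the start) were found for 7 of the 9 genes, *Sox9* and *Sox10* being without an entry. *Sox13* and *Sox12*, the members with the smallest ratios among these 7, had 40 and 47 CpGs in 300 bases (percentiles 96.3 and 98.7 of 32851 promoters, median 7). *Sox11* and *Sox8* had 21 CpGs each, *Sox4* had 12, *Sox5* had 3, and the 6 promoters of *Sox6* had 2 to 13. *Sox5* and *Sox6* were the members with the largest ratios among the 7. For *Sox6*, the outermost entry (chr7:116038695-116038994, GRCm38.p6, minus strand) had 11 CpGs and the next one 13 (percentiles 59.5 and 62.9). The entries of *Sox6* with 2 to 4 CpGs lie further inside the gene. The only entry of *Sox5* (chr6:143947057-143947356, GRCm38.p6) lies far inside the gene, whose annotated 5′ end is at 144730497 (NCBIM37). Its CpG count thus describes an internal start and not the promoter at that 5′ end. With so few genes this is a description only, and the tables do not say which start site was used. The bases before the listed start are shown for *Sox13* (chr1:133424213-133424462, minus strand) and *Sox5* (chr6:143947107-143947356, minus strand, the internal start). These genes are the extremes of the ratio among those with 1 promoter entry, and each CpG is in capitals.
Sox13: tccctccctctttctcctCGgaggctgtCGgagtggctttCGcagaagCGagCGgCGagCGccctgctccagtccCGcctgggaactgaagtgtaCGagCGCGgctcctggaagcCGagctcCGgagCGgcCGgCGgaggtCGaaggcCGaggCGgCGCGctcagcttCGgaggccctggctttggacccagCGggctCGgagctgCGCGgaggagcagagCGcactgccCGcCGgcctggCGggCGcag
Sox5: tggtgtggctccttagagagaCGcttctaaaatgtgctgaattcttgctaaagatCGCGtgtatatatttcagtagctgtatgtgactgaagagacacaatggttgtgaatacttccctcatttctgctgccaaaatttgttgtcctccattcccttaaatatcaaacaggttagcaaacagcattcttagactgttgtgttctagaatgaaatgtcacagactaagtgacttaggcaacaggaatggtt

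The stretch shown holds 31 CpGs for *Sox13* and 3 for *Sox5*. AACAAT, the core of the sequence that Sox proteins bind, was searched on both strands over the 300 bases. Neither AACAAT nor TATAAA, the TATA box, contains the other. AACAAT was found in 1 of the 12 promoters, one of *Sox6*, and in 10.7% of all promoters. TATAAA was found in 2 of the 12, both of *Sox6*, and in 13.6% of all promoters. A match of letters is not evidence of binding.

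The remaining Sox genes were compared to place the 9 genes in their family, of which 18 are listed. *Sry* and *Sox1* were not analysed here. *Sox2*, which serves both pluripotent and neural progenitor cells, had 7181.95 in ES cells and 2602.06 in forebrain and held 88.9% and 24.6% of the summed RPKM of the 18 genes, respectively. The 9 SoxC, SoxD and SoxE genes together held 6.16% in ES cells and 68.1% in forebrain. Per length, *Sox11* thus stood above *Sox2* in forebrain (3542.06 compared with 2602.06) and far below it in ES cells (139.19 compared with 7181.95).

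Of the 9 remaining genes, 5 were at least 2-fold higher in forebrain (25.8% of all genes) and 2 in ES cells (23.3%). The other 2 lay between, and the median log2 ratio was 2.80. *Sox3* and *Sox21*, expressed in neural progenitors, had 34.62 and 38.68 in ES cells and 247.42 and 321.65 in forebrain. *Sox15*, known from ES cells and muscle precursors, had 292.1 in ES cells and 44.71 in forebrain. *Sox14* (26.91 and 25.47) and *Sox30* (2.85 and 3.83) had intervals that overlapped between the samples.

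**Figure D4:**
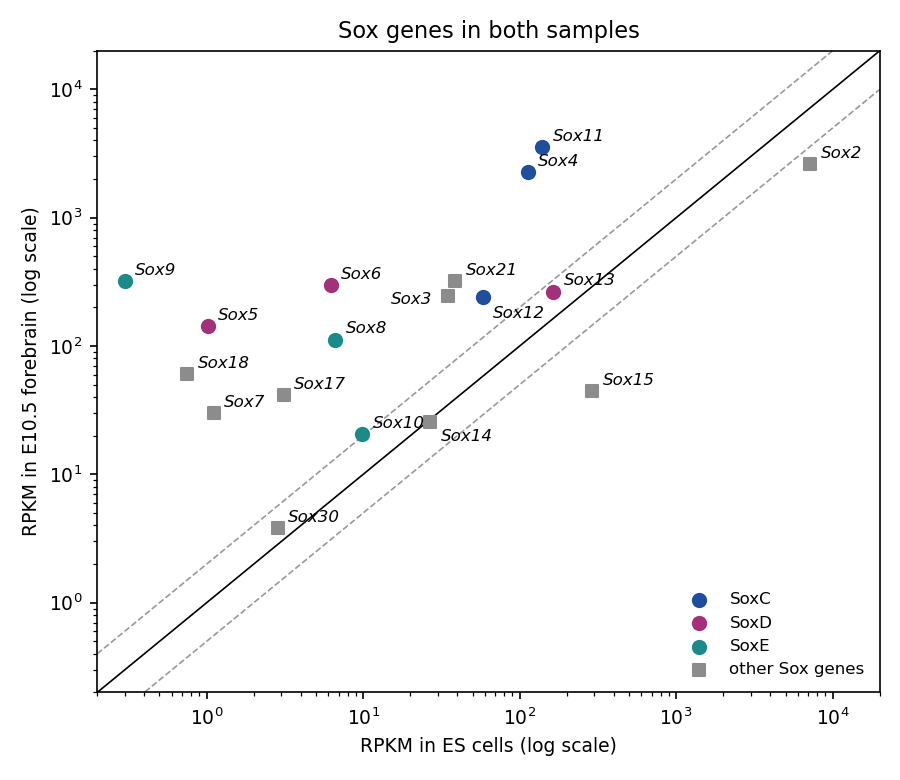
RPKM in forebrain against RPKM in ES cells for the 18 listed Sox genes (both axes log, 1 sample each), with equality as the solid line and 2-fold differences as dashed lines. All 9 SoxC, SoxD and SoxE genes lie above the solid line, while *Sox2*, *Sox15* and *Sox14* lie below it.

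Genes whose levels were most like those of the leading member of each group were sought among 19619 protein-coding genes, by the distance on log2(RPKM + 1) over the 2 samples. The nearest to *Sox11* was *App* (136.84 in ES cells and 3791.98 in forebrain, distance 0.10), followed by the further identifier of *Sox4* (0.24) and *Nes* (0.45). The nearest to *Sox6* were *Setbp1* (5.89 and 309.43), *Brsk2* (5.77 and 299.94) and *Cntln* (6.36 and 281.47), at distances of 0.0815 to 0.0925. For *Sox9* they were *Rspo2* (0.37 and 344.24), *Fat3* (0.37 and 299.5) and *Sema3a* (0.36 and 297.92), at distances of 0.125 to 0.127. The value of *Sox9* in ES cells is 1 read (interval 0.0075 to 1.65), so these distances are finer than the counting of reads allows. With 2 samples, likeness says only that both levels were close.

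Genes of the neuronal differentiation list, among which *Tubb3* and *Dcx* are known targets of SoxC proteins, were mostly higher in forebrain. Of 18 genes, 15 were at least 2-fold higher there (25.8% of all genes) and 1 in ES cells (23.3%), with a median log2 ratio of 5.14. *Dcx*, a microtubule protein of migrating neurons, had 0.19 in ES cells (2 reads) and 253.17 in forebrain. *Tubb3*, the neuronal beta-tubulin, had 795.19 and 3318.34. *Tead2*, counted in this list though not specific to neurons, had 709.95 and 3472.76. On log2(RPKM + 1), among those that reached an RPKM of 5 in one of the samples, the highest ratios were those of the transcription factors *Myt1* and *Ebf3*, listed at 0 in ES cells and at 419.81 and 295.61 in forebrain, at least 791-fold and 427-fold higher against a floor of 3 reads. The lowest were those of *Stmn2* (6910.29 and 1056.31), which was higher in ES cells, and *Ebf1* (81.82 and 121.64).

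Cartilage matrix genes, the best known targets of *Sox9* with *Sox5* and *Sox6*, were examined next. Of 11 genes, 7 were at least 2-fold higher in forebrain (25.8% of all genes) and 3 in ES cells (23.3%), with a median log2 ratio of 1.68. *Col2a1*, the main cartilage collagen, had 19.44 in ES cells and 3580.84 in forebrain, a 184-fold difference. *Hapln1*, a link protein, had 0.72 and 427.21, and *Col9a1* had 3.58 and 861.71. The 7 mesenchyme markers were also higher in forebrain, and their part in these values was not tested. The matrix proteins *Matn1* (136.06 in ES cells and listed at 0 in forebrain, at least 111-fold lower) and *Comp* (40.53 and 3.38) went the other way, as did *Acan* (7.39 and 1.28), the main cartilage proteoglycan.

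Genes of the neural crest and its derivatives, in which *Sox9* and *Sox10* act in turn, showed 11 of 15 at least 2-fold higher in forebrain (25.8% of all genes) and 3 in ES cells (23.3%), with a median log2 ratio of 2.10 (1.81 with genes listed at 0 set to the floor). *Ednrb*, the endothelin receptor of crest cells, had 1.06 in ES cells and 453.98 in forebrain, and *Pax3* was listed at 0 and had 179.32. The list shares *Twist1* with the mesenchyme markers. *Foxd3* (214.4 and 19.43), which is shared by crest and pluripotent cells, and *Mitf* (328.57 and 38.46) were higher in ES cells. *Sox10* itself rested on 69 reads in forebrain, beside 2238 reads for *Ednrb*.

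Of 10 oligodendrocyte lineage genes, to which *Sox10* and *Sox8* belong by function, 7 were at least 2-fold higher in forebrain (25.8% of all genes) and 1 in ES cells (23.3%), with a median log2 ratio of 3.23. *Mag*, counted among the 7, had 0.5 in ES cells (1 read) and 2.02 in forebrain (6 reads). The counting interval of its ratio was 0.49 to 185. *Olig2* was listed at 0 and had 197.97, and *Pdgfra* had 7.25 and 1795.6. *Pdgfra* is also one of the 7 mesenchyme markers, all of which were higher in forebrain, and the part of mesenchyme in its value was not tested. *Mog*, a myelin protein, had 236.13 in ES cells and 31.3 in forebrain, and *Cnp* had 304.63 and 216.76. Of 12 glial and radial glial genes, 6 were at least 2-fold higher in forebrain (25.8% of all genes) and 1 in ES cells (23.3%), with a median log2 ratio of 1.35. Among those that reached an RPKM of 5 in one of the samples, *Fabp7* (4.88 and 3551.25) and the Notch target *Hes5* (3.58 and 1198.59) had the highest ratios, while *Aldh1l1* (505.85 and 36.13) and *Hes1* (641.3 and 819.89) had the lowest.

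**Figure D5:**
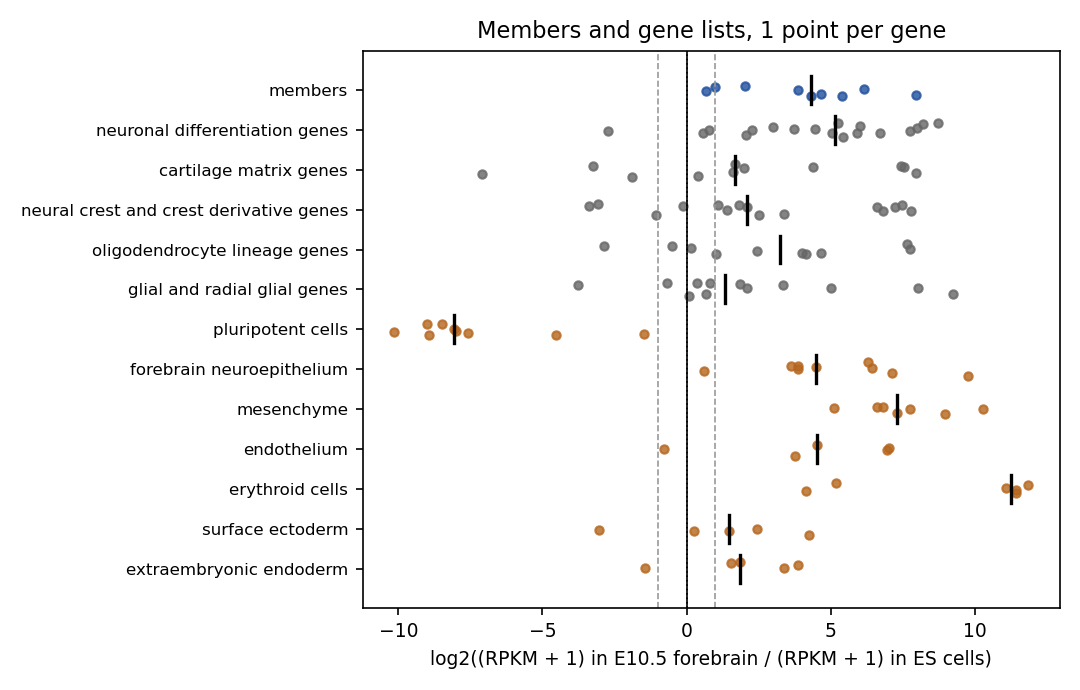
Log2 ratio of forebrain over ES cells for the 9 members (blue), the genes of related lists (grey) and the markers of cell types (brown), 1 point per gene, with the median of each list as a black bar and 2-fold as dashed lines. The median of the members is 4.31, that of pluripotency markers is -8.08 and that of mesenchyme markers is 7.29.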

How the data were processed

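Total RNA of 1 ES cell sample and 1 E10.5 forebrain sample was sequenced from 1 end after removal of rRNA, from libraries that keep the strand. The labels and the methods give different read lengths. Reads were aligned by the authors to mm9 (NCBIM37) in HTSstation, and the authors deposited 1 RPKM value per gene and sample. The submitters' processing notes name Bowtie 0.12.7. All 29311 listed genes have the coordinates of the NCBIM37 annotation (37310 genes), and none is listed at 0 in both samples.

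RPKM values were used as deposited. Multiplied by exonic length in kb, the values of genes of up to 2500 bp fell on multiples of 1.221 (ES cells) and 0.819 (forebrain). Of 5465 and 5226 values below 10 reads, 62.2% and 64.4% lay within 0.05 reads of a whole multiple (10% by chance), and 11.3% and 11.75% lay at the midpoint between whole multiples. Reads were inferred from this step and rounded, so values at a midpoint are uncertain by up to 1 read. The sums of these products, 52230000 and 48970000, differ from those of a conventional RPKM, so each sample carries a scaling of unknown origin.

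Ratios were taken as E10.5 forebrain over ES cells, on log2(RPKM + 1) for counts of genes. With 1 sample per cell type, no test and no p-value is given, and genes are named as called by fold alone. The 9 genes and all lists were chosen with earlier results of these data known. Named genes were the members, the Sox genes with at least 3 reads, the 2 highest and 2 lowest ratios of each list among genes with an RPKM of at least 5 and any marker at 0, the 3 nearest genes to the leading member of each group, and transcripts overlapping a member. *Tubb3*, *Dcx*, *Tead2*, *Col2a1*, *Acan*, *Mag* and *Krt18* were added after their values were seen. Older symbols were matched through RefSeq synonyms. Alternatives covered 4 scalings, pseudocounts of 0.1 and 5, a read minimum, a 4-fold limit and the leading member left out. The step and the intervals were tested on simulated data. Calculations ran in matplotlib 3.10.9, pandas 2.3.3, scipy 1.17.1 and numpy 2.4.6 under Python 3.11.15.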

Additional observations from a re-analysis of the deposited data

Results flagged for a closer look

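Annotated transcripts that overlap a member were not part of the comparison, and those above the 3 reads that a count of 0 allows are given here as values. At *Sox4*, the antisense lincRNA *Gm17419* had an RPKM of 105.54 in ES cells and 2206.5 in forebrain, and the further identifier of *Sox4* had 150.72 and 3068.05. Both share exonic bases with *Sox4* and are not independent of it. At *Sox5*, the transcript *4933415D12Rik*, annotated on the opposite strand, had 23.25 in forebrain from 45 reads. Of its exonic bases, 83.9% lie in exons of *Sox5*, so reads of *4933415D12Rik* and *Sox5* cannot be told apart there. *Gm10396*, on the strand of *Sox5* and outside its exons, had 5.43 from 8 reads in forebrain and was listed at 0 in ES cells. In an intron of *Sox6*, on the opposite strand, the gene *1110006G14Rik* had 82.88 in forebrain from 43 reads and was listed at 0 in ES cells. It shares no exonic base with *Sox6*.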

How the results depend on the processing

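Of 87 alternative values, 68 kept their direction within a counting interval or, for counts, within 1.5 times, 19 moved and 0 reversed. For single members this interval was taken on log2(RPKM + 1) from the opposite Poisson limits of both samples. For summed levels it was a normal approximation. Neither is the exact binomial interval given with the ratios above. All 55 alternative log2 ratios of single members were above 0. The number of members at least 2-fold higher in E10.5 forebrain was 7 or 8 under every alternative, *Sox10* being the gene that was added. Scaling by the sum of RPKM gave a ratio of 23.58 for the summed SoxC level and 4.995 for SoxD, and scaling by the median gave 15.31 and 3.244. Leaving out the leading member gave 14.68 for SoxC, 2.478 for SoxD and 8.022 for SoxE. The scalings moved the median log2 ratio of all genes to between -0.29 and 0.26, and these ratios moved by the same factor by construction. With the further identifier of *Sox4*, an alternative chosen after seeing the data, the SoxC ratio was 19.7. The log2 ratio of *Sox9*, from 1 read in ES cells, ranged from 5.944 to 9.65 with the pseudocount. No sample could be left out with 1 sample per cell type. No paired analysis was possible because the samples carry no shared replicate and no test was made.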

Other observations

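The SoxF genes, which act in endothelium, were all higher in forebrain. *Sox18* had an RPKM of 0.75 in ES cells (1 read) and 60.67 in forebrain, a ratio of 80.9 (exact binomial counting interval 14.2 to 3206). *Sox17* had 3.1 and 41.29, a ratio of 13.3 (6.60 to 31.4), and *Sox7* had 1.11 and 30.05, a ratio of 27.1 (9.04 to 133). In forebrain, the endothelial genes *Cdh5*, *Tie1* and *Tek* had 325.7, 307.93 and 343.92. *Pecam1*, a further endothelial marker, was the exception, with 551.14 in ES cells and 316.51 in forebrain.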
